A study of Mus musculus with 2 samples.

Results

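The 10 genes described here encode contactins (Cntn1, Cntn3, Cntn4, Cntn5 and Cntn6) and contactin-associated proteins (Cntnap2, Cntnap4, Cntnap5a, Cntnap5b and Cntnap5c), out of 32285 genes in the count matrices. They were found by their symbols, and all 10 were in the matrices. The family was chosen by its measured levels and by its ratios between genotypes and between CR cell classes in these same cells, so the values below are a description and none of them is tested. CR cells were taken as barcodes with at least 2000 UMIs (unique molecular identifiers, each marking 1 captured transcript) and at least 5 UMIs of Reln, the gene of the secreted protein reelin that marks these neurons. This left 1003 of 1011 deep barcodes in the control library and 390 of 406 in the knockout library, together 1393 cells. Just inside the Reln limit, 1 control and 0 knockout cells had exactly 5 UMIs, and just outside it 1 barcode of each library had 4.

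Hippocampal CR cells of P14 mice were isolated as DAPI- tdT+ cells by fluorescence-activated sorting and measured by 10X 3' single-cell RNA-sequencing. The control library pooled 4 mice of genotype ΔNp73-Cre; Cic flox/+; tdT, of which 3 were male and 1 female, and the knockout library pooled 4 littermates of genotype ΔNp73-Cre; Cic flox/flox; tdT, of which 2 were male and 2 female. All of these mice carry the Cre, the reporter and at least 1 floxed Cic allele, so the controls are conditional heterozygotes, and in both the Cre is driven from ΔNp73. With 1 library per genotype there is no replicate: intervals are exact 95% intervals that cover counting error only, and genotype cannot be told apart from the library or from the mice pooled in it.

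Contactins are immunoglobulin-family adhesion molecules held at the neuronal surface by a lipid anchor. Contactin-associated proteins are transmembrane relatives of neurexins, and several of them bind a contactin on the same membrane. Cntn1 with Cntnap1 builds the junction between axon and myelin beside the node of Ranvier, Cntn2 with Cntnap2 gathers potassium channels next to it, and Cntn3, Cntn4, Cntn5 and Cntn6 are ligands of the receptor phosphatase Ptprg. CR cells are early-born neurons of the outermost cortical and hippocampal layers, most of which die after birth. Capicua, encoded by Cic, is a transcriptional repressor that binds short octamers such as TGAATGAA.

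The sequence upstream of the start is shown for Cntnap2 and Cntn5, which carry most UMIs of the family, and for Cntnap5b, which had the widest range between CR cell classes among the 6 members with at least 200 UMIs. Each run holds the 250 bases before a RefSeq transcript start on GRCm38.p6, 5′ to 3′ on the strand of the gene, with CG dinucleotides in capitals.
Cntnap2 (chr6:45059811-45060060, plus strand): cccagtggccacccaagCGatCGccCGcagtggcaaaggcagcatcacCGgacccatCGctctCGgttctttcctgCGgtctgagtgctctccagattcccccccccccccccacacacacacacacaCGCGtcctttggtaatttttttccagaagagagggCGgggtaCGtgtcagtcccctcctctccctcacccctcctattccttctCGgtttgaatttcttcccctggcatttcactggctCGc
Cntn5 (chr9:10904776-10905025, minus strand): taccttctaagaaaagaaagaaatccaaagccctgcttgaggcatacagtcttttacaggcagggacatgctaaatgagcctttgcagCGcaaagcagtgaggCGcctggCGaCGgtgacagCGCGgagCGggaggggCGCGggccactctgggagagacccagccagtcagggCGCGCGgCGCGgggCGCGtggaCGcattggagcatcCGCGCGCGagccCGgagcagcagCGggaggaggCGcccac
Cntnap5b (chr1:99772151-99772400, plus strand): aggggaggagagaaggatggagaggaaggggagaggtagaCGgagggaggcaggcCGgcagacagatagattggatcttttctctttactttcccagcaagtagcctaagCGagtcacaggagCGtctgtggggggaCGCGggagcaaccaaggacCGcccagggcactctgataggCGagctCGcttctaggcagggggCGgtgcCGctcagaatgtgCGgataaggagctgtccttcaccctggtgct
By GENCODE M21, the Cntnap2 run lies inside the gene but in no exon, and the Cntn5 and Cntnap5b runs lie outside their genes. The Cntn5 run held 24 CG dinucleotides, a number that 11.98% of all RefSeq promoters reach in the same 250 bases. Cntnap2 had 13 (31.5% of promoters reach that) and Cntnap5b 12 (33.5%), against a median of 6. By symbol, 7 members could be matched to a promoter window, in 12 windows of 300 bases that include 50 bases after the start. The octamers TGAATGAA, TGAATGGA, TCAATGAA and TCAATGGA, searched on both strands, were in none of these 12 windows, and 3.84% of 32851 RefSeq promoters hold at least 1 of them. This says only that these letters are not in these windows. By GENCODE M21, every window of Cntn3, Cntn4, Cntn6 and Cntnap2 lies wholly inside its gene. Sequence upstream of the outermost annotated start of these genes was thus not searched.

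The cells had the markers of their label. All 8 CR markers (Reln, Trp73, Lhx1, Lhx5, Calb2, Ndnf, Cacna2d2 and Nhlh2) had a UMI in at least 25% of cells of both libraries. Of the GABAergic list, Gad1 and Gad2 had 1 UMI each per library and Sst, Vip and Lhx6 were at 0. In the other lists the highest shares were those of Cspg4 (30.3% and 37.9%), Pecam1 (16.4% and 15.4%) and P2ry12 (10.97% and 11.8%). Median depth was 6224 UMIs in control and 6664 in knockout cells, and no barcode was shared among the cells of the 2 libraries. Cic itself stood at 58.9 and 51.3 counts per 1000000 UMIs (CPM, of UMIs outside mitochondrial and ribosomal protein genes), but a 3' tag need not lie in the deleted part. In this mouse line the study found CIC lost from most but not all hippocampal CR cells. The knockout library can therefore hold cells that keep CIC, and these were not separated here. Etv4, a known target that Cic represses, stood at 1.97 CPM in control and 70.9 in knockout cells.

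Cntnap2, the juxtaparanodal protein also known as Caspr2, was by far the most abundant member. It had 73022 UMIs in control cells (11061 CPM) and 28966 in knockout cells (10472 CPM). This placed it 3rd by UMIs in both libraries among genes other than mitochondrial and ribosomal protein genes. It was seen in 99.9% of control and 99.7% of knockout cells, with a median of 62 and 62.5 UMIs per cell. Cntn5, an adhesion molecule of sensory and auditory circuits, came next with 1502 and 1618 CPM and a UMI in 92.9% and 94.6% of cells. Cntnap2 alone held 84.5% of the family's UMIs in control and 82.6% in knockout cells, and with Cntn5 the share was 96.0% and 95.3%. The 10 genes together took 1.31% of UMIs in control and 1.27% in knockout cells, and 0.0760% and 0.0779% in droplets of 20 to 100 UMIs, which stand for free RNA.

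Cntn3 was the only other member above 100 CPM, at 312 in control and 350 in knockout cells, with a UMI in 67.2% and 70.5% of cells. Cntnap4, which acts at GABAergic and dopaminergic synapses, stood at 73.3 and 81.7 CPM. Cntnap5b stood at 69.4 and 85.3 CPM. Among control cells the intervals of Cntnap4 (66.9 to 80.1 CPM) and Cntnap5b (63.2 to 76.0 CPM) overlapped, so their order is not resolved. Cntn1, the paranodal contactin, followed with 59.2 and 45.6 CPM, and Cntn4, an axon guidance molecule of the olfactory and visual systems, with 11.5 and 18.4 CPM.

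The last 3 members were near the limit of detection. Cntn6 had 5 UMIs in control cells and 0 in knockout cells, where the 3 counts taken as the limit for a count of 0 are 1.08 CPM and the exact interval reaches 1.33 CPM. Cntnap5a had 10 and 7 UMIs and Cntnap5c 10 and 18, of which 7 were in 1 knockout cell. None of these 3 stood clear of the free RNA of its library. Droplets had 0.918 and 3.62 CPM of Cntnap5a, 0.459 and 0.329 CPM of Cntn6 and 0.459 and 2.96 CPM of Cntnap5c. For Cntnap5c, the intervals of cells and droplets overlapped in both libraries. They were 0.726 to 2.79 and 0.0116 to 2.56 CPM in control. In the knockout library they were 3.86 to 10.3 and 1.35 to 5.62 CPM. Of the family's genes outside the 10, Cntn2, the usual partner of Cntnap2, had 106 and 108 CPM, Cntnap1 10 and 8 UMIs, and Cntnap3 0 and 1. Transcripts of Cntn2 were thus measured beside those of Cntnap2, whereas those of Cntnap1 were near 0 beside those of Cntn1.

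Per kb of annotated exon, the same 3 genes led in control cells. Counts of 3' tags need not scale with exon length, so the order of Cntnap5b and Cntnap4 stays unresolved. Cntnap2 had 1079 CPM per kb, Cntn5 331, Cntn3 46.4, Cntnap5b 13.3, Cntnap4 11.7, Cntn1 6.28 and Cntn4 1.36. Cntn5 and Cntnap2 were carried by most cells, whereas UMIs of members with low counts lay in fewer cells. The 10% of cells with the most Cntnap5b UMIs held 74.7% of its UMIs in control and 69.9% in knockout cells, against 24.4% and 25.2% for Cntnap2. For members nearer to Cntnap5b in level, this share was 64.7% and 68.3% (Cntn1) and 58.7% and 55.8% (Cntnap4). Only 21.5% of control and 24.4% of knockout cells had a Cntnap5b UMI, and 2.09% and 3.08% had at least 5, with a highest value of 18 and 19 in 1 cell. With each cell thinned to 2000 UMIs the shares of cells with a UMI fell to 10.4% and 10.0% for Cntnap5b, and to 80.6% and 81.8% for Cntn5.

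**Figure D1:**
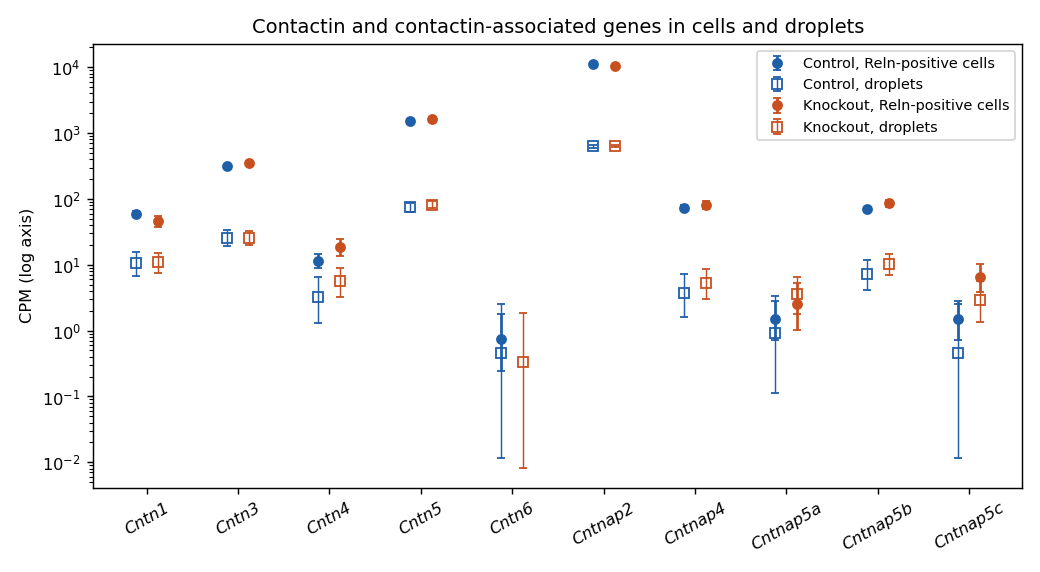
CPM (log axis) of the 10 genes in Reln-positive cells (filled circles) and in droplets of 20 to 100 UMIs (open squares) of the control (blue) and knockout (orange) library; bars are exact 95% counting intervals, and Cntn6 in knockout cells, with 0 UMIs, is not drawn. Cntnap2 (11061 and 10472 CPM) and Cntn5 (1502 and 1618 CPM) stand above all other members, and cells stand above droplets for the 7 members with at least 100 UMIs.

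Against free RNA, the 7 members with at least 100 UMIs stood above most of the genes compared. Cntn5 was 20.2 times as high in control cells as in control droplets and 19.7 times as high in the knockout library, Cntnap2 17.5 and 16.6 times, and Cntnap4 20.0 and 15.5 times. Cntn3 had 12.1 and 13.6, Cntnap5b 9.45 and 8.36, Cntn1 5.61 and 4.19, and Cntn4 3.58 and 3.30. Some of these ratios rest on few droplet UMIs. Control and knockout droplets held 8 and 16 UMIs of Cntnap4, 7 and 17 of Cntn4 and 16 and 31 of Cntnap5b. The median over the 9290 genes compared was 1.19 in both libraries. All 10 genes are long. The shortest is Cntn1 (291 kb) and the longest Cntnap2 (2245 kb, beyond 99.99% of genes), and on GRCm38 they lie on chromosomes 15 (Cntn1), 6 (Cntn3, Cntn4, Cntn6 and Cntnap2), 9 (Cntn5), 8 (Cntnap4), 1 (Cntnap5a and Cntnap5b) and 17 (Cntnap5c). Exons make up 0.364% of the span of Cntn5 and 0.457% of that of Cntnap2.

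The ratio of cells to droplets rose with span over the genes compared. Its median was 0.578 in control for genes under 20 kb, 6.68 for those of 300 kb and over and 10.3 for the 50 genes of 1 Mb and over. Among those 50 long genes Cntn5 stood at the 98th percentile and Cntnap2 at the 86th, and set against the same genes Cntn4 was at the 14th. The 6 transcripts measured that stay in the nucleus took 6.89% of UMIs in control cells and 0.846% in droplets. Whether the counts include intronic reads is not given in the sources used here, and the part of nuclear transcripts in these ratios was not tested. Cntn3 overlaps 4930587E11Rik, which had 291 UMIs on the opposite strand, and Cntnap4 overlaps Gm45904, which had 71. Strand settings are not given in the sources used here. Whether reads of these overlapping genes add to the values of Cntn3 and Cntnap4 was not tested.

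**Figure D2:**
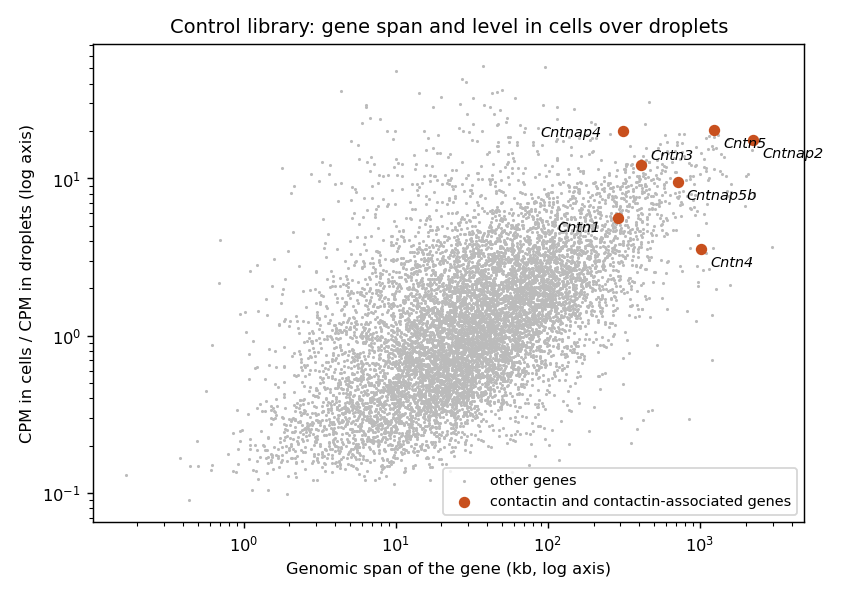
CPM in cells over CPM in droplets of the control library (log axis) against the genomic span of each gene in kb (log axis), with members that have enough UMIs in orange and other genes in grey. Members lie among the longest genes, with Cntn5 at 20.2 and Cntnap2 at 17.5 near the top. Cntn4, at 3.58 from 7 droplet UMIs, lies below most genes of like span.

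Between genotypes, 1 of the 7 members with at least 100 UMIs over both libraries differed by at least 1.5-fold: Cntn4, higher in knockout cells. Among 9442 genes with as many UMIs, 2.73% were at least 1.5-fold higher and 1.66% at least 1.5-fold lower in knockout cells, and since these ratios took part in choosing the family, nothing is read from the count. Cntn4 had 76 UMIs in 1003 control cells (11.5 CPM) and 51 in 390 knockout cells (18.4 CPM), a ratio of 1.60 (1.10 to 2.31). Cntn4 passed the minimum of 100 UMIs only with its UMIs from knockout cells, where its CPM is higher. The ratio of 1.60 rests on few UMIs. It was 1.40 without the deepest 5% of cells, 1.33 with each cell weighted equally and 1.47 without the 5 cells with most UMIs of each gene. Without cells of high respiratory-chain expression it was 1.40 (0.923 to 2.09). The 7 knockout-over-control ratios had a median of 0.16 on the log2 scale, against 0.01 over all 9442 genes. As these are the ratios that took part in choosing the family, nothing is read from this median either.

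The most abundant members differed little. Cntnap2 had a ratio of 0.947 (0.934 to 0.960) and Cntn5 one of 1.08 (1.04 to 1.12). The summed family had a ratio of 0.969 (0.957 to 0.981). These intervals leave out 1 only as far as counting error goes, and no spread between libraries or mice is available. Cntn3 stood at 1.12 (1.04 to 1.21), Cntnap4 at 1.11 (0.947 to 1.31) and Cntnap5b at 1.23 (1.05 to 1.44), the last at 0.916 with cells thinned to 2000 UMIs. Cntnap5c, below the count minimum, had a ratio of 4.30 (1.88 to 10.4) from 28 UMIs, 9 of its 18 knockout UMIs being in cells with high respiratory-chain expression. Cntnap5a had 1.67 (0.540 to 4.86).

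Of the 7 members with at least 100 UMIs, Cntn1 had the lowest ratio, 0.769 (0.624 to 0.942), from 391 control UMIs and 126 knockout UMIs. Without cells of high respiratory-chain expression it was 0.828 (0.664 to 1.03). The sexes of the pooled mice differed between the libraries, so cells were also split by Xist and by 4 Y-linked genes. In cells with a Y-linked and no Xist UMI (702 control and 194 knockout cells), Cntn1 stood at 60.5 and 33.6 CPM, a ratio of 0.555 (0.400 to 0.756). In cells with a Xist and no Y-linked UMI (227 and 176 cells), it stood at 50.9 and 56.3 CPM, a ratio of 1.11 (0.785 to 1.56). The difference between these ratios was not tested, and the control cells of the second kind should come from 1 mouse by the labels. Cntn5 also lay on either side of 1, at 1.09 (1.04 to 1.15) in the former and 0.947 (0.893 to 1.00) in the latter cells, while Cntnap2 was below 1 in both (0.943 and 0.899).

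**Figure D3:**
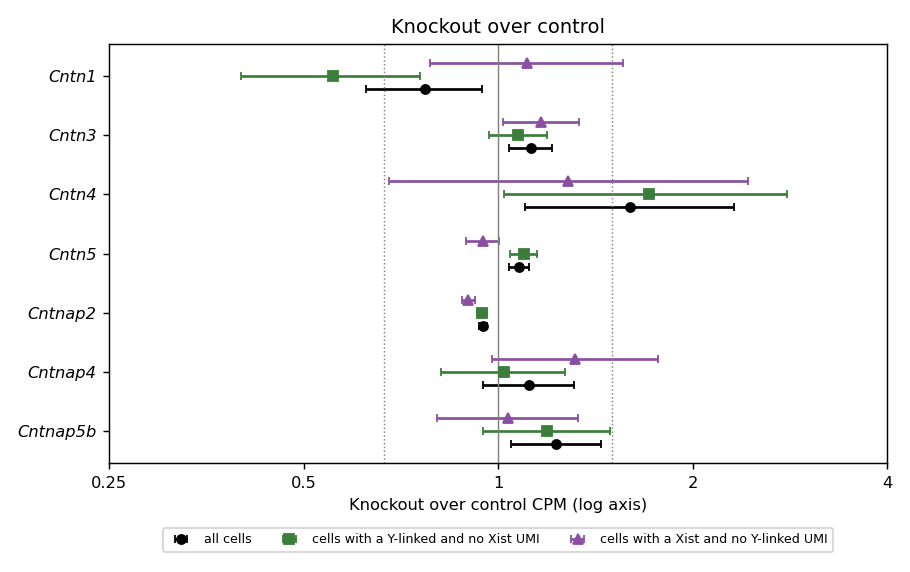
Ratio of knockout to control CPM (log axis) for the 7 members with at least 100 UMIs, in all cells (black circles), cells with a Y-linked and no Xist UMI (green squares) and cells with a Xist and no Y-linked UMI (purple triangles); bars are exact 95% counting intervals and dotted lines mark 1.5-fold. Cntn1 stands at 0.769 in all cells but at 0.555 and 1.11 in the 2 subsets, and Cntnap2 lies just under 1 in all 3.

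CR cell classes were read from Cck, encoding a neuropeptide, Grik1, encoding a kainate receptor subunit, and Chst8 or Alkal2. The study named the first and the second for clusters of these same cells, and the last pair was chosen with earlier results of these cells known. A cell was positive with at least 1 UMI. Positive for Cck were 324 control and 110 knockout cells, for Grik1 194 and 70, and for Chst8 or Alkal2 232 and 91, with 126 and 51 cells positive for more than 1 class and 387 and 173 for none. Many calls rest on a single UMI, as in 93 of the 194 control and 36 of the 70 knockout cells positive for Grik1. Free RNA held these genes too. Cck stood at 155 and 130 CPM in cells and 130 and 85.6 CPM in droplets. Grik1 stood at 79.7 and 48.1 CPM in cells and 23.4 and 58.9 CPM in droplets. By CPM, Grik1 was thus no higher in knockout cells than in the free RNA of that library. Of the knockout cells, 32 had 2 to 4 Grik1 UMIs and 2 had 5 or more. How many positive cells owe their UMIs to free RNA was not tested. The class contrasts below have the same limit, and the part of free RNA in them was not tested.

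By Cck, 1 of 6 members with at least 100 UMIs in each library was at least 1.5-fold higher in positive cells of both libraries, Cntnap5b, and 0 were lower. Of 5213 genes, 0.633% were higher and 0.921% lower by this rule. Cntnap5b stood at 89.6 CPM in Cck-positive and 58.7 CPM in Cck-negative control cells, a ratio of 1.53 (1.26 to 1.84). In the knockout library it stood at 127 and 68.5 CPM, a ratio of 1.85 (1.42 to 2.42). Positive cells were higher in both libraries, and by Cck UMIs the control level rose from 58.7 CPM at 0 to 113 CPM at 2 to 4, then stood at 73.2 CPM at 5 or more. Knockout cells went from 68.5 CPM at 0 to 143 CPM at 2 to 4 and 177 CPM at 5 or more, the last in 17 cells. The ratio was 1.39 in control and 1.78 in knockout cells that were positive for Cck only against cells positive for none. Split by sex, the Cck ratio of Cntnap5b was 1.81 in control cells with a Y-linked and no Xist UMI and 1.01 in those with a Xist and no Y-linked UMI, against 1.43 and 1.87 in knockout cells, and in the knockout library it was 1.28 without the 5 cells with most Cntnap5b UMIs.

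The other 5 members with enough UMIs were within 1.5-fold by Cck in both libraries. Cntn5 had ratios of 0.832 (0.797 to 0.868) in control and 0.892 (0.834 to 0.953) in knockout cells, and Cntnap2 had 0.929 and 0.883. Cntnap4 was 0.966 (0.795 to 1.17) in control and 1.36 (1.02 to 1.79) in knockout cells, and Cntn1 and Cntn3 had intervals that held 1 in both libraries.

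By Grik1, 0 of 6 members passed 1.5-fold in both libraries in either direction, where 0.499% of genes were higher and 0.614% lower. Cntn5 was higher in Grik1-positive cells of both, at 2063 against 1354 CPM in control (1.52, 1.46 to 1.59) and 1874 against 1557 CPM in the knockout library (1.20, 1.12 to 1.29). Cntnap2 was higher as well, with 13827 against 10331 CPM (1.34, 1.32 to 1.36) and 12590 against 9963 CPM (1.26, 1.23 to 1.30). The pair rose with the number of Grik1 UMIs in control cells. Cntn5 went from 1354 CPM at 0 UMIs through 1854 and 2168 to 2339 CPM at 5 or more, and Cntnap2 from 10331 through 12908 and 14248 to 15132 CPM. In knockout cells Cntnap2 was 9450 CPM at 1 Grik1 UMI, below the 9963 CPM at 0, and 16005 CPM at 2 to 4 UMIs.

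Cntn1 had 89.3 CPM in Grik1-positive and 51.3 CPM in Grik1-negative control cells, a ratio of 1.74 (1.39 to 2.16). In knockout cells it had 44.7 and 45.7 CPM, a ratio of 0.978 (0.599 to 1.54), and the difference between libraries was not tested. The control ratio lay between 1.58 and 2.05 in the 20 alternatives run, and the knockout ratio between 0.879 and 1.502, below 1 as in the value given in 10 of 20. Within all Grik1-positive cells the knockout level of Cntn1 was 0.501 (0.309 to 0.781) times the control level. By disjoint class, this ratio was 0.542 (0.296 to 0.932) with Grik1 only and 0.349 (0.173 to 0.645) with more than 1 class. It was 1.16 (0.720 to 1.82) with Cck only, 1.34 (0.719 to 2.42) with Chst8 or Alkal2 only and 0.856 (0.605 to 1.19) in cells of no class. Cntnap4 had ratios of 1.38 (1.12 to 1.69) and 1.34 (0.968 to 1.82). Cntnap5b went the other way, with 0.790 (0.612 to 1.01) in control and 0.493 (0.312 to 0.747) in knockout cells, the latter from 25 UMIs in positive cells.

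By Chst8 or Alkal2, 0 of 6 members passed 1.5-fold in both libraries, where 0.767% of genes were higher and 0.537% lower. Cntnap5b was lower in positive control cells, at 41.0 against 78.7 CPM (0.521, 0.396 to 0.676), and in the knockout library at 69.8 against 91.2 CPM (0.766, 0.553 to 1.05). Its knockout-over-control ratio within the positive cells was 1.70 (1.17 to 2.48). Cntn5 was lower in both libraries, with 0.754 (0.717 to 0.792) and 0.790 (0.736 to 0.847). Cntn3 stood at 0.926 (0.834 to 1.03) in control and 0.768 (0.657 to 0.894) in knockout cells, and Cntnap2 at 0.911 and 0.992. In control cells Cntnap5b was highest with Cck alone (102 CPM), at 73.1 CPM in cells of no class, at 54.2 CPM with Grik1 alone and lowest with Chst8 or Alkal2 alone (28.3 CPM, 27 UMIs). The knockout order differed, with 145 CPM with Cck alone, 81.5 CPM in cells of no class, 68.1 CPM with Chst8 or Alkal2 alone and 33.2 CPM with Grik1 alone (10 UMIs). Cntn5 in control cells stood at 1323 CPM with Cck alone, 1514 CPM in cells of no class, 2226 CPM with Grik1 alone and 1151 CPM with Chst8 or Alkal2 alone.

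**Figure D4:**
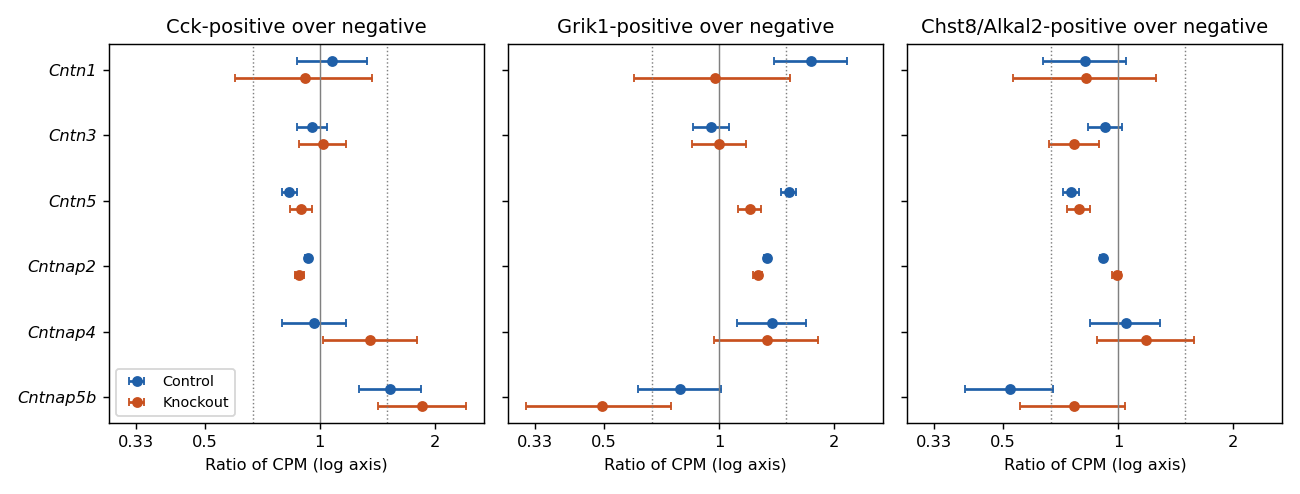
Ratio of CPM in class-positive over class-negative cells (log axis) for Cck, Grik1 and Chst8 or Alkal2, in control (blue) and knockout (orange) cells, for the 6 members with at least 100 UMIs in each library; bars are exact 95% counting intervals and dotted lines mark 1.5-fold. Cntnap5b lies above 1.5 by Cck in both libraries (1.53 and 1.85), and Cntn5 lies above 1 by Grik1 (1.52 and 1.20) and below 1 by Chst8 or Alkal2 (0.754 and 0.790).

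**Figure D5:**
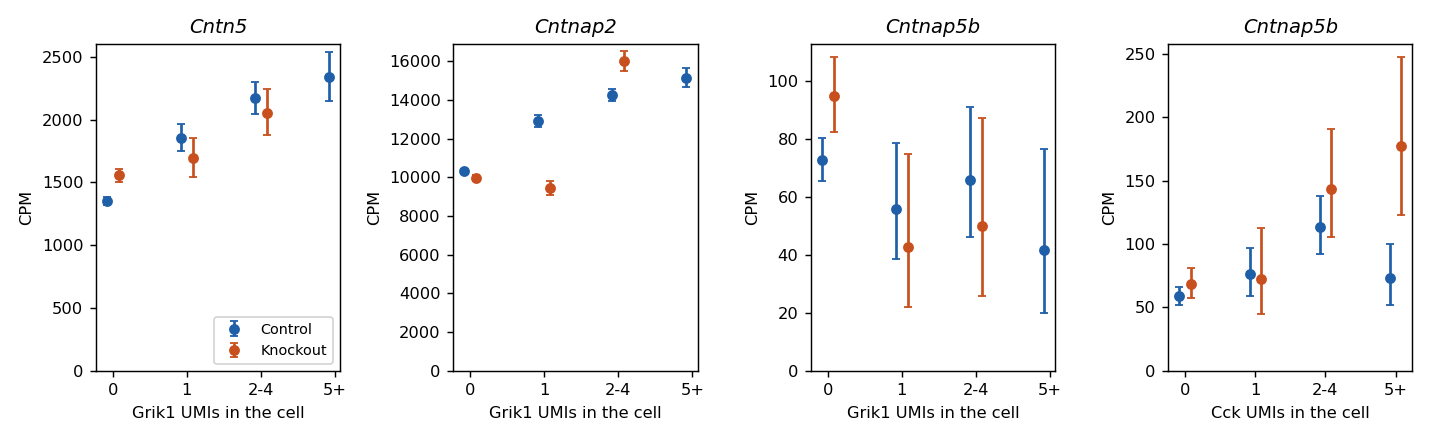
CPM of Cntn5, Cntnap2 and Cntnap5b in cells grouped by their Grik1 UMIs and of Cntnap5b by Cck UMIs, in control (blue) and knockout (orange) cells; bars are exact 95% counting intervals and groups under 10 cells are left out. Cntn5 climbs in control cells from 1354 to 2339 CPM with Grik1 UMIs, and Cntnap5b in knockout cells from 68.5 to 177 CPM with Cck UMIs.

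Cells with high respiratory-chain expression had lower levels of Cntnap2, Cntn3, Cntn5, Cntnap4 and Cntnap5b in both libraries. In 102 control and 41 knockout cells the nuclear genes of the respiratory chain took at least 1.5% of UMIs. Cntnap2 was 0.531 (0.518 to 0.545) times as high there as in the other cells of the control library and 0.540 (0.520 to 0.562) times in the knockout library. Cntn3 had 0.453 and 0.474, Cntn5 0.676 and 0.577, Cntnap4 0.708 and 0.606 and Cntnap5b 0.695 and 0.603, while Cntn1 was 0.924 (0.688 to 1.22) in control and 0.513 (0.257 to 0.931) in knockout cells. The nuclear transcript Malat1 moved alike, at 0.502 and 0.519. These cells were deeper (median 13182 and 13104 UMIs against 6065 and 6429), and 6 nuclear-retained transcripts took 3.77% and 3.90% of their UMIs against 7.49% and 7.45%. Genes of 300 kb and over had a median log2 ratio of -0.77 and -0.57 and shorter genes one of -0.09 and -0.11. Whether the members follow their span here was not tested.

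Members also differed by which other member a cell held. Cntnap5b was higher in cells with a Cntn3 UMI than in those without in both libraries, 78.6 against 47.5 CPM in control (1.66, 1.32 to 2.10) and 95.2 against 58.7 CPM in knockout cells (1.62, 1.16 to 2.31). Split the other way, Cntn3 in cells with a Cntnap5b UMI was 1.01 (0.915 to 1.12) times its level in cells without one in control and 1.10 (0.958 to 1.27) times in knockout cells. Cntn5 was higher in cells with a Cntn1 UMI, by 1.25 (1.20 to 1.31) and 1.15 (1.08 to 1.23), and in cells with a Cntnap4 UMI, by 1.18 (1.14 to 1.23) and 1.22 (1.15 to 1.29). Cells with a UMI of a given member were deeper, as in a median of 6517 against 5693 UMIs for Cntn3 in control, and its part in these ratios was not tested.

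Over 10 groups of cells (5 disjoint classes in each library), the genes most like each member were found among 7172 genes. The measure was the Pearson correlation of log2(CPM + 10), as a description over points that share libraries and class genes. Cntn5 was most like Nxph3 (0.961), Pde2a (0.937) and Sema4g (0.930), Cntnap2 most like Chsy3 (0.930), Sctr (0.922) and Fam98b (0.904), and Cntnap5b most like Tomm6 (0.951), Rbbp6 (0.946) and Hist1h1e (0.937). For Cntn3 the leading gene was Rab4b (0.935), for Cntn1 Mllt3 (0.920) and for Cntnap4 Ubtf (0.899). These are the highest values among 7172 genes over 10 points, and no value for unrelated genes was computed. Cntnap2 had a range of only 0.52 in log2(CPM + 10) over these groups. Whether any pair shares its expression was not tested.

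Of 25 binding partners and scaffolds, 20 had at least 100 UMIs, of which 2 were at least 1.5-fold higher in knockout cells and 0 lower (2.73% and 1.66% of all 9442 genes), with a median log2 ratio of -0.14 against 0.01 over all genes. Nrcam, an adhesion molecule of nodes that contactins bind, had 41 UMIs in control (6.21 CPM) and 101 in knockout cells (36.5 CPM), a ratio of 5.88 (4.05 to 8.67). A UMI of it was in 3.69% of control and 16.2% of knockout cells, and droplets had 2.75 and 6.58 CPM. The ratio was 4.93 (3.04 to 8.10) in cells with a Y-linked and no Xist UMI and 7.46 (3.52 to 18.2) in cells with a Xist and no Y-linked UMI, 4.70 in cells positive for Cck only, 9.79 for Grik1 only and 7.74 in cells of no class. With Chst8 or Alkal2 only, it was 2.91 (0.625 to 14.6) from 9 UMIs. Tnr, encoding the matrix protein tenascin-R, had 70 and 54 UMIs and a ratio of 1.84 (1.27 to 2.66). The minimum of 100 UMIs counts both libraries together, and Nrcam and Tnr were each under it in control cells. They passed it only with their UMIs from knockout cells, where their CPM is higher. Nothing is therefore read from the count of partners called.

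Ptprg, the receptor of Cntn3 to Cntn6, stood at 906 CPM in control and 753 CPM in knockout cells, a ratio of 0.830 (0.790 to 0.873). Chl1, a relative of L1cam, had 0.802 (0.739 to 0.870), and the scaffold genes Dlg2 and Dlg4 had 0.810 (0.758 to 0.865) and 0.821 (0.694 to 0.966). Kcna2, a potassium channel gathered by Cntnap2, was named after its values were seen and is under the count minimum, with 32 UMIs in control and 43 in knockout cells, a ratio of 3.21 (1.98 to 5.24). By class, Chl1 was the 1 partner of 16 past 1.5-fold in both libraries, lower in Cck-positive cells at 0.629 (0.572 to 0.691) in control and 0.404 (0.327 to 0.494) in knockout cells, where 0.921% of all genes were lower by this rule.

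Of 13 other neural immunoglobulin adhesion genes, 12 had enough UMIs, of which 1 was at least 1.5-fold higher in knockout cells and 0 lower, beside 2.73% and 1.66% of all genes. Kirrel3, a synaptic adhesion gene of the hippocampus, had 64 UMIs in control and 42 in knockout cells. It too passed the count minimum only with its knockout UMIs, so nothing is read from the count of genes called. Its ratio was 1.57 (1.04 to 2.35). Ncam2 had 1.14 (1.03 to 1.25), Ntm 0.906 (0.825 to 0.993) and Negr1 0.936 (0.888 to 0.987). Lsamp, encoding a lipid-anchored adhesion molecule of the limbic system, stood at 10476 CPM in control and 9669 CPM in knockout cells, a ratio of 0.923 (0.910 to 0.936), and it was higher in Grik1-positive cells too, by 1.30 (1.28 to 1.33) and 1.20 (1.17 to 1.24). None of the 8 genes of this list with enough UMIs in each library passed 1.5-fold by Cck, Grik1, or Chst8 or Alkal2 in both libraries.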

How the data were processed

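Per the methods and labels, cells from 2 pooled libraries were sequenced on 10X 3' v3.1 chemistry and the authors deposited raw UMI counts per gene and barcode, unfiltered and without normalization. The methods name mm10 and an earlier version of Cell Ranger, and the submitters' processing notes Cell Ranger 8.0.1 with mm39. Here gene positions came from GENCODE M21 (GRCm38) by identifier. Strand and intron settings are not given in the sources used here.

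Counts were summed over cells and scaled to UMIs outside mt-, Rpl, Rps and Mrp genes. Ratios have exact conditional binomial intervals and shares Clopper-Pearson intervals. The ratio intervals, not the share intervals, were run on simulated counts. These held counting error only, which the intervals assume, so the run could not show how spread between cells or mice affects them. Cells are not replicates, so no p-value is given. A call needed 1.5-fold and 100 UMIs, over both libraries for genotype and in each library for classes. Doublets and cells with other markers were not removed. The value of 1 marker gene is not reported here. All members are named, and per list up to 6 genes farthest from 1 whose interval leaves out 1. For each member the genes most like it are named too. The members and lists were chosen with earlier results of these data known. Analyses used Python 3.11.15, numpy 2.4.6, scipy 1.17.1 and pandas 2.3.3. The alternatives changed the limits on cells, the scaling, the fold, the count minimum and positivity.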

Additional observations from a re-analysis of the deposited data

Results flagged for a closer look

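The knockout-over-control ratio of Cntn5 differed in direction between cell classes. It was 0.895 (0.815 to 0.982) in cells positive for Grik1 only, 1.14 (1.05 to 1.24) in cells positive for Cck only and 1.14 (1.08 to 1.21) in cells of no class. The difference was not tested. The split rests on Grik1 UMIs, which stood at 58.9 CPM in knockout droplets and 48.1 CPM in knockout cells.

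Outside the cells measured, the deep barcodes with under 5 Reln UMIs (8 control and 16 knockout) held Cntn5 at 169 CPM in the knockout library (8 UMIs) and 0 UMIs in control. Cntnap2 stood there at 232 CPM (11 UMIs) in the knockout and 27.2 CPM (1 UMI) in the control library, below the levels of the Reln-positive cells. In droplets Cntnap2 stood at 632 CPM in the knockout and 633 CPM in the control library.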

How the results depend on the processing

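No paired analysis was possible because each genotype has 1 library, which also leaves none to drop. Of the ratios of single genes under 28 alternatives, 775 lay within the counting interval of the value reported and 104 outside it. The count of members past 1.5-fold between genotypes was 1, from Cntn4. It was 0 without the deepest 5% of cells, without cells holding other markers, with cells weighted equally, without respiratory-high cells, without the 5 richest cells per gene, in cells with Xist, at a minimum of 300 UMIs, at a fold of 2, and within Cck-positive or unmarked cells. It was 2 at a fold of 1.25. In some settings the 1 was another member. It was Cntn1 with cells thinned (0.581), in cells with a Y-linked and no Xist UMI (0.555) and within Grik1-positive cells (0.501). Within Chst8- or Alkal2-positive cells it was Cntnap5b (1.70). By Cck the count was 1. It was 0 with a Trp73 UMI required, without the deepest 5% of cells, with cells weighted equally or thinned, without the 5 richest cells per gene, in cells of either sex, at a minimum of 300 UMIs, at a fold of 2, against cells of no class and with thinned positivity, and 2 at a minimum of 50 UMIs. By Grik1 the count was 0. It was 1 without cells holding other markers and with thinned positivity, and 3 at a fold of 1.25. By Chst8 or Alkal2 it was 0, but 1 in cells with a Y-linked UMI and with thinned positivity, and 2 at a fold of 1.25. The share over all genes was not computed for these alternatives, so nothing is read from their counts of members. The log2 ratio of the summed family was -0.05. It was -0.0740 without cells holding other markers, -0.0747 thinned, -0.0757 without the 5 richest cells per gene, -0.0837 within Cck-positive cells, -0.13 in cells with Xist and within Grik1-positive cells, and 0.0365 within Chst8- or Alkal2-positive cells. Fewer cells or fewer UMIs enter most of these settings by construction. The cause of the differences was not tested in any setting.

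Counting error limits the members under 100 UMIs (Cntn6, Cntnap5a and Cntnap5c). It also limits Cntn4, which passed that minimum only with its knockout UMIs. No spread between mice was measured.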
